A study of Homo sapiens with 9 samples.

Results

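The 6 genes described here encode the enzymes that build the cap of messenger RNA and methylate it. They were chosen by name (RNGTT, RNMT, RAMAC, CMTR1, CMTR2 and PCIF1) and not by a rule on measured values. Earlier results of these data were known when they were chosen. All 6 were found among the 60609 gene identifiers of the count tables. Their levels were measured by RNA sequencing after removal of ribosomal RNA in U2-OS, an established human osteosarcoma cell line, in 9 libraries. Of these, 6 libraries came from cells that overexpress NCBP2, which is the smaller protein of the complex that binds caps in the nucleus, 3 from clone A1 and 3 from clone A4. The other 3 libraries were of cells with the empty vector, each from a clone of its own. All cells grew in DMEM with serum, and the labels of the libraries name no drug, time course or knockdown. The labels do not say whether the 3 libraries of clone A1, or of clone A4, were separate cultures. The NCBP2 arm thus rests on 2 clones, and p-values measure only the spread between these libraries, part of which may be technical.

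The cap is added while RNA polymerase II is still near the start of a gene. RNGTT removes a phosphate from the 5′ end of the new transcript and joins a guanosine to it, and RNMT, held active by its small partner RAMAC, methylates that guanosine. CMTR1 then methylates the ribose of the first transcribed nucleotide and CMTR2 that of the next one, while PCIF1 methylates the base of a first nucleotide that is adenosine. The finished cap is the structure that NCBP2, together with NCBP1, binds in the nucleus, so these enzymes make the ligand of the overexpressed protein.

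In GENCODE release 44 on GRCh38, all 6 are protein-coding genes. RNGTT (ENSG00000111880.16) lies on the minus strand of chromosome 6 from 88609897 to 88963618 and CMTR1 (ENSG00000137200.13) on the plus strand of the same chromosome from 37433219 to 37482827. RNMT (ENSG00000101654.17) spans 13726660 to 13764556 on the plus strand of chromosome 18, and RAMAC (ENSG00000169612.4) spans 82986210 to 82991057 on the plus strand of chromosome 15. CMTR2 (ENSG00000180917.17) lies on the minus strand of chromosome 16 from 71281389 to 71289715, and PCIF1 (ENSG00000100982.12) on the plus strand of chromosome 20 from 45934683 to 45948023. The GC content of their Ensembl canonical transcripts differed widely. CMTR2 (37.9%), RAMAC (38.3%), RNGTT (38.8%) and RNMT (41.1%) were below the median of 47.1% over the tested genes, and CMTR1 (53.3%) and PCIF1 (60%) were above it.

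RefSeq promoters on GRCh38.p14 were matched for 5 of the 6 genes; RNMT had no entry. The 250 bases before the annotated start are printed for 4 of them because, across the libraries, CMTR1 and PCIF1 varied together and against RNGTT, while RAMAC followed its own course. Each is given 5′ to 3′ on the strand of its gene, at chr6:88963619-88963868 for RNGTT, chr15:82985960-82986209 for RAMAC, chr6:37432971-37433220 for CMTR1 and chr20:45934433-45934682 for PCIF1. Capitals mark matches, on either strand, to 6 short motifs chosen with these sequences in view.
RNGTT: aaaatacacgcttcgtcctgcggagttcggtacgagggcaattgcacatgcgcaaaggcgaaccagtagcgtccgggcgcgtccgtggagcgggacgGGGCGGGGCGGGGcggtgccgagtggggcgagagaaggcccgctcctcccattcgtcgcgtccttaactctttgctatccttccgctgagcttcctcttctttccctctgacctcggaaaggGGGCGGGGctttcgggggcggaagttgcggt
RAMAC: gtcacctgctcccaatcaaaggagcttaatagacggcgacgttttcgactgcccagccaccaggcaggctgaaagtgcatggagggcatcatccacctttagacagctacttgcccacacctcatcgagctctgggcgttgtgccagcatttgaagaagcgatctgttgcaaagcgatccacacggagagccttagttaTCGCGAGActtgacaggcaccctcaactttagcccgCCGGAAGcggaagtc
CMTR1: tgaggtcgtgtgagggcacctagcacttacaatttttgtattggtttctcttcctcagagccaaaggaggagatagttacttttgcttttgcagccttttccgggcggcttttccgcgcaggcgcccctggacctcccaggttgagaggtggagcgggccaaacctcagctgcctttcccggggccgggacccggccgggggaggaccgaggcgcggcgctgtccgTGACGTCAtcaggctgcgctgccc
PCIF1: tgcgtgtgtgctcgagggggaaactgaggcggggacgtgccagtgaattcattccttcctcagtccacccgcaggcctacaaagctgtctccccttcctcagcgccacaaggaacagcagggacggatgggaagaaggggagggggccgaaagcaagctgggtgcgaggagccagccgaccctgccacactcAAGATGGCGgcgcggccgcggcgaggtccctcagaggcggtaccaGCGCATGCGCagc

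The RNGTT sequence held 3 matches to GGGCGGGG, a motif of the SP and KLF factors that overlapped itself there and was found in 21.8% of the 35116 promoter windows of the same length. RAMAC held CCGGAAG, the ETS motif (8.52% of windows), and TCGCGAGA, read by ZBTB33 (1.03%). CMTR1 held TGACGTCA, the motif of CREB and ATF factors (1.65%). PCIF1 held AAGATGGCG, the YY1 motif (0.652%), and GCATGCGC, the NRF1 motif (2.63%), matched on both strands at overlapping positions. No motif of the 6 was matched in more than 1 of the 4 printed sequences, and CMTR2, with 2 promoter entries, held none of them. The GC content of these 250 bases was 64.4% for RNGTT, 55.2% for RAMAC, 62% for CMTR1 and 65.6% for PCIF1. RNGTT, with a GC-poor transcript, thus had a promoter as GC-rich as that of CMTR1 and PCIF1. A match is a description of the letters and does not show that a factor binds.

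Counts on the strand of genes were lowest, at 29234022, in clone A1 replicate A and highest, at 50554080, in vector replicate B. The share of reads on lines that name no gene was highest in the first of these libraries (63.61%) and lowest in the second (44.52%). Clone A1 replicate A stood apart, with GC-rich genes low and GC-poor genes high. In the NCBP2 arm, before any offset for GC content, the log2 differences of the 6 genes are given with and without this library. For single clones, only some of them are given both ways. Levels are given as CPM, counts scaled to a common library total after TMM scaling, and always in the order A, B, C of a group's replicates. NCBP2, the overexpressed gene, had 298.9, 348.4 and 304.7 CPM in clone A1. Clone A4 had 796.3, 1035 and 456.2 CPM of it, and the vector libraries had 98.41, 90.63 and 98.3 CPM. Every library labelled as overexpressing NCBP2 lay above every vector library, with an edgeR adjusted p of 0.123 for the arm as a whole, 0.0327 for clone A1 and 0.000417 for clone A4. The arm passed with DESeq2 (adjusted p 4.6e-08) and limma-voom (0.0279). The clone A1 call was lost with counts of both strands (edgeR adjusted p 0.0757) and when any 1 of clone A1 replicates B and C, clone A4 replicate A and the 3 vector libraries was left out (0.0581 to 0.148). Of 7 osteoblast and mesenchymal markers, RUNX2 (182 to 294 CPM), SPARC and VIM were high in all libraries and COL1A2 was at most 1.15 CPM. The 7 markers summed to 3740 to 4570 CPM in clone A1, 4400 to 5400 CPM in clone A4 and 5170 to 6040 CPM in the vector libraries, and what part this has in the values below was not tested. Epithelial markers summed to at most 7.59 CPM, markers of blood to at most 2.01 CPM and endothelial ones to at most 1.13 CPM, and CD3E of T cells was at 0 in all 9 libraries. In such bulk RNA, fewer cells that express a gene and less RNA per cell cannot be told apart.

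All 6 genes were detected in every library, and all passed the filter on low counts. Compared per length, as CPM per kilobase of exon, RNMT was the highest at 19.3 ± 2.97 (SD over the 9 libraries). CMTR2 followed at 11.9 ± 3.05, then CMTR1 at 10.1 ± 1.8, RNGTT at 9.26 ± 1.29, RAMAC at 8.26 ± 1.73 and PCIF1 at 6.3 ± 2.49 CPM per kilobase. In this order the range of each gene overlapped that of the next one. Placed among the 13983 protein-coding genes tested, RNMT stood at the 86.1 percentile and PCIF1 at the 61.9 percentile of CPM per kilobase, so the set lay in the upper part of the distribution. Counts behind a single value ran from 129 (PCIF1 in clone A1 replicate A, a counting error of 8.8%) to 7374 (RNMT in vector replicate A, 1.16%), and these errors cover counting only.

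**Figure D1:**
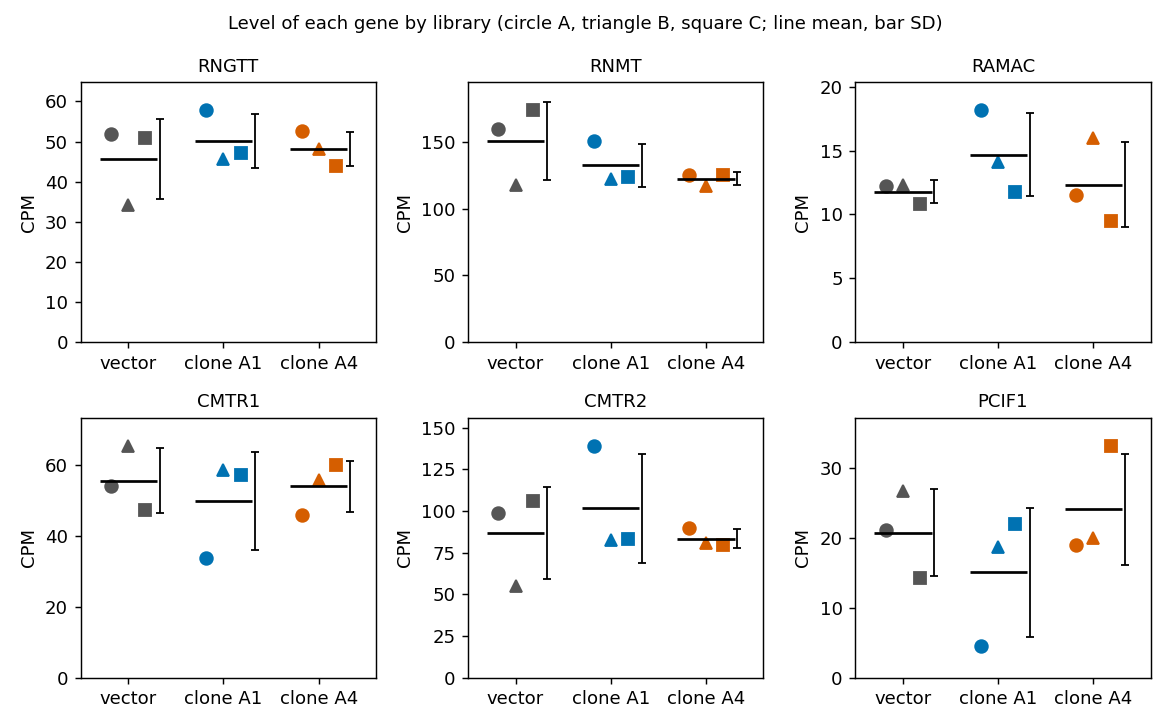
Level in CPM (linear axis from 0) of each gene in every library, by group; symbols are replicates A, B and C, lines are means and bars are SDs (n = 3). The vector range meets the range of each clone for every gene, and PCIF1 in clone A1 replicate A (4.54 CPM) is far below the other 8 libraries.

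None of the 6 genes passed the test for a difference between the NCBP2 arm and vector. With edgeR's quasi-likelihood test over 21682 genes, 0 of 6 had a Benjamini-Hochberg adjusted p under 0.05, against 0.0184% of all genes tested. At an unadjusted p under 0.05 the count was also 0 of 6, against 5.71% of all genes, and for no gene did the 6 NCBP2 libraries lie wholly above or below the 3 vector libraries, against 3.74% of all genes. Of the 6 differences, 3 were positive and 3 negative, and their median was 0.01 on the log2 scale beside 0.02 for all genes. The DESeq2 and limma-voom alternatives also called 0 of 6, and the lowest adjusted p that any alternative gave a member was 0.155. A difference that misses the threshold does not show equal levels, so the 95% interval is given for each gene.

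RNGTT, the enzyme of the first 2 steps, had 57.82, 45.66 and 47.03 CPM in clone A1, while clone A4 had 52.51, 48.2 and 43.93 CPM. The vector libraries had 51.88, 34.15 and 50.99 CPM. Vector replicate B was the lowest of all 9, and the other 8 libraries lay within a narrow band, the groups overlapping. The log2 difference of the NCBP2 arm from vector was 0.11 (SE 0.17), with an interval from -0.26 to 0.47, or 0.835-fold to 1.39-fold (edgeR adjusted p 0.999). Without vector replicate B the difference was -0.07, so its sign rests on that library, and without clone A1 replicate A it was 0.05.

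RNMT, which methylates the cap guanosine, had 150.6, 122.4 and 123.8 CPM in clone A1, while clone A4 had 125.1, 116.9 and 125.2 CPM. The vector libraries had 159.7, 118 and 173.6 CPM. Vector replicates A and C were higher than all NCBP2 libraries, whereas vector replicate B was lower than all but 1 of them. RNMT had the lowest unadjusted p of the set, 0.129 in edgeR's quasi-likelihood test. Its log2 difference was -0.24 (SE 0.15; interval -0.56 to 0.08; 0.677-fold to 1.06-fold; edgeR adjusted p 0.999), and it was negative in all 17 alternatives, from -0.39 to -0.14. The fitted differences from vector, the control that both clones share, were negative in clone A1 (-0.19) and clone A4 (-0.30). The libraries of each clone overlapped those of vector. Without vector replicate B the difference of the NCBP2 arm was -0.39 (edgeR adjusted p 0.865), and without clone A1 replicate A it was -0.30 (0.774). Without vector replicate C it was -0.14.

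RAMAC, the activating subunit of RNMT, is a short gene with 424 to 703 counts per library. Clone A1 had 18.16, 14.12 and 11.73 CPM, clone A4 had 11.5, 15.99 and 9.494 CPM, and the vector libraries had 12.26, 12.33 and 10.78 CPM. The vector libraries lay close together, and the NCBP2 libraries reached both above and below them. The log2 difference was 0.19 (SE 0.23; interval -0.30 to 0.69; edgeR adjusted p 0.999), and without clone A1 replicate A it was 0.08. C15orf40, a protein-coding gene on the opposite strand, overlaps exons of RAMAC, and counts taken without regard to strand turned the difference to -0.08. RAMAC also has a near copy, RAMACL, which was counted at 0.234 to 0.953 CPM, so some reads of either gene may have been assigned to the other.

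CMTR1, which methylates the ribose of the first nucleotide, had 33.82, 58.8 and 57.25 CPM in clone A1, while clone A4 had 46.09, 56.03 and 60.26 CPM. The vector libraries had 54.09, 65.63 and 47.43 CPM. Clone A1 replicate A was the lowest and vector replicate B the highest. The log2 difference was -0.10 (SE 0.19; interval -0.52 to 0.32), or 0.699-fold to 1.25-fold (edgeR adjusted p 0.999). It was -0.01 without clone A1 replicate A and turned to 0.04 without vector replicate B.

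CMTR2, which acts on the next nucleotide, had the reverse extremes. Clone A1 had 139.3, 82.36 and 83.12 CPM, clone A4 had 89.92, 80.71 and 79.69 CPM, and the vector libraries had 98.91, 54.92 and 105.8 CPM. Clone A1 replicate A was here the highest and vector replicate B the lowest, and the other 7 libraries lay between them. The log2 difference was 0.10 (SE 0.23; interval -0.40 to 0.60; edgeR adjusted p 0.999). It became -0.06 without clone A1 replicate A and -0.15 without vector replicate B, so each of these libraries alone decides its sign.

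PCIF1, the cap-specific adenosine methyltransferase, had the lowest level per length and the widest spread. Clone A1 had 4.54, 18.66 and 21.89 CPM, clone A4 had 18.99, 20 and 33.16 CPM, and the vector libraries had 21.1, 26.72 and 14.27 CPM. The highest of the 6 NCBP2 libraries was 7.3 times the lowest. The log2 difference of the NCBP2 arm was -0.08 (SE 0.41), and its interval from -0.97 to 0.81, or 0.509-fold to 1.76-fold, was the widest of the 6 (edgeR adjusted p 0.999). It was 0.11 without clone A1 replicate A and 0.14 without vector replicate B.

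Taken clone by clone, with 1 estimate of the spread over all 9 libraries, the result was the same. In clone A1 against vector, edgeR's adjusted p passed for 0 of 6 genes (0.0646% of all genes), the unadjusted p for 0 of 6 (7.51%), and 0 of 6 had groups without overlap (14.2%). In clone A4 against vector these counts were 0, 0 and 0 of 6, against 0.115%, 5.25% and 12.1% of all genes, and in clone A4 against clone A1 they were again 0, 0 and 0, against 0.161%, 6.63% and 13.6%. The comparisons with vector share its 3 libraries and are not independent. PCIF1 stood at -0.46 (interval -1.46 to 0.54) in clone A1 against vector, 0.22 (-0.78 to 1.21) in clone A4 against vector and 0.67 (-0.33 to 1.67) in clone A4 against clone A1. Without clone A1 replicate A, these were -0.02, 0.23 and 0.25. RAMAC had 0.31 in clone A1 and 0.06 in clone A4, CMTR2 0.23 and -0.05, and CMTR1 -0.16 and -0.04. Without clone A1 replicate A, the clone A1 values became 0.14 for RAMAC, -0.06 for CMTR2 and 0.07 for CMTR1.

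**Figure D2:**
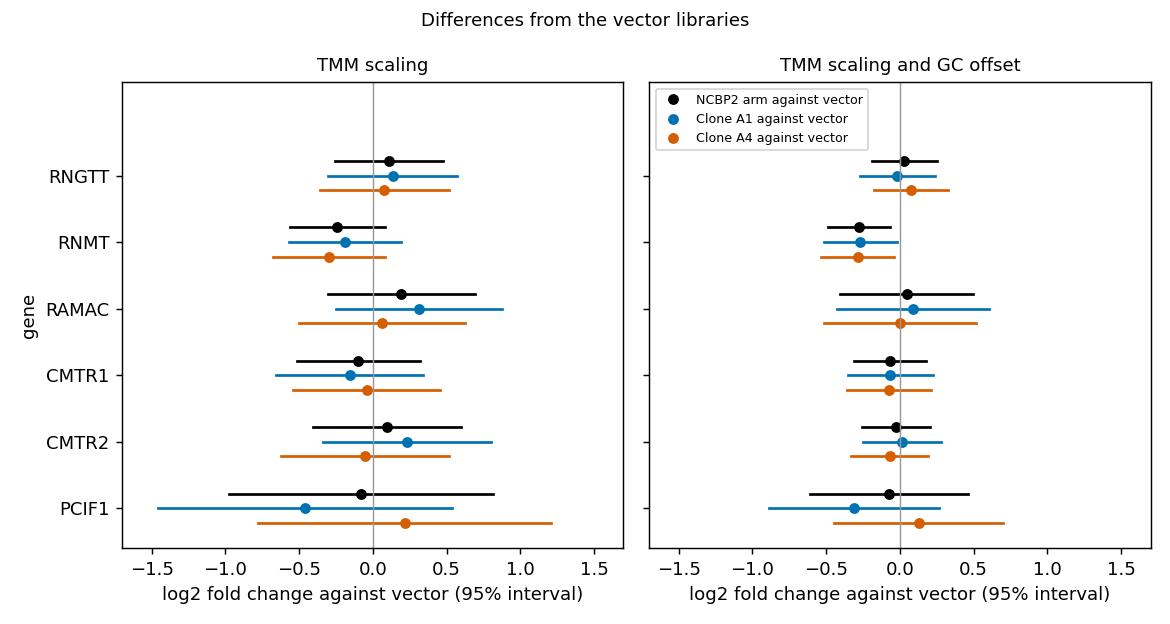
Log2 fold change (points) with 95% intervals (lines) of each gene in the NCBP2 arm, clone A1 and clone A4 against the 3 vector libraries, by edgeR after TMM scaling (left) and with an offset for GC content added (right). All 18 intervals on the left include 0; on the right they are shorter, and the 3 intervals of RNMT lie below 0.

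The genes did not vary independently from library to library. On the log2 CPM scale, each value is given next as the difference from the gene's mean over the 9 libraries. In clone A1 replicate A, the GC-poor genes were above their means, with CMTR2 at 0.66, RAMAC at 0.51, RNGTT at 0.28 and RNMT at 0.17. The GC-rich genes were below theirs in that library, with CMTR1 at -0.63 and PCIF1 at -1.97. Vector replicate B had the reverse order, with CMTR2 at -0.68, RNGTT at -0.48 and RNMT at -0.18, against 0.32 for CMTR1 and 0.58 for PCIF1. RAMAC, at -0.04 there, did not follow. Genes grouped by GC content alone showed the same pattern. Among the 21586 tested genes with a GC value, the medians from the lowest to the highest GC quintile were 0.43, 0.16, -0.10, -0.34 and -0.81 in clone A1 replicate A, and -0.50, -0.14, 0.08, 0.24 and 0.46 in vector replicate B. In clone A4 replicate C the highest quintile stood at 0.66 and PCIF1 at 0.89.

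**Figure D3:**
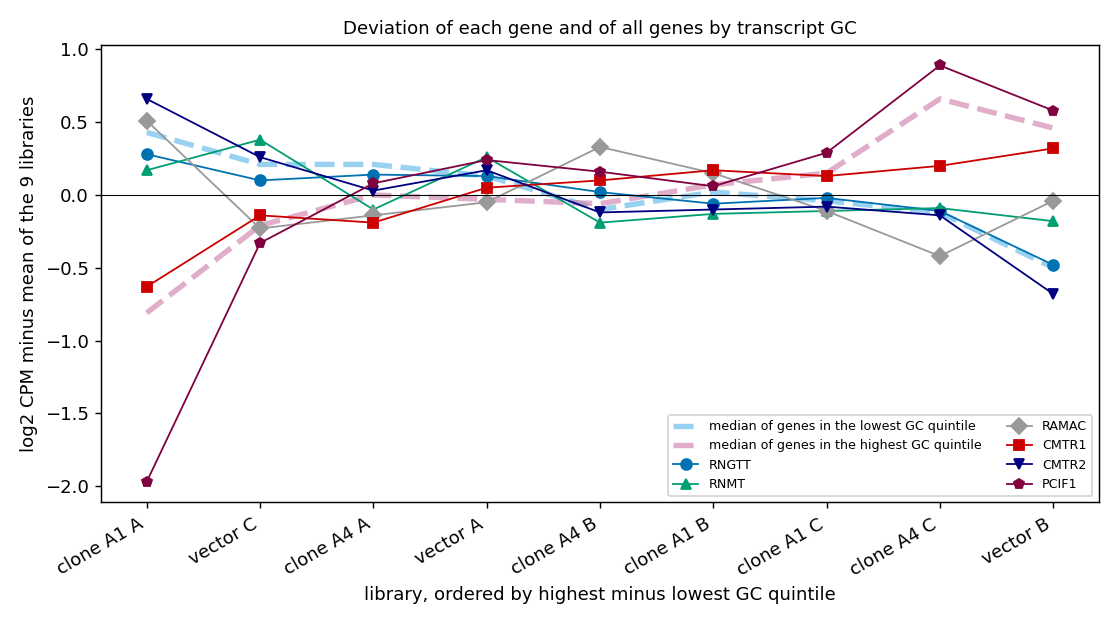
Deviation of log2 CPM from the mean of the 9 libraries for each gene (symbols). Dashed lines are medians of the tested genes in the lowest and highest quintile of transcript GC content. Libraries are ordered by the gap between the dashed lines, which cross between clone A1 replicate A on the left (0.43 against -0.81) and vector replicate B on the right (-0.50 against 0.46); CMTR2 and RNGTT run near the first line and CMTR1 and PCIF1 with the second.

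Across the 9 libraries, Pearson's r of log2 CPM was 0.94 between RNGTT and CMTR2, 0.92 between CMTR1 and PCIF1, and -0.89 between CMTR1 and CMTR2. RNMT and RAMAC, the subunits of one enzyme, had an r of -0.05. These values are descriptions over libraries that share the GC pattern. Read against the median of its own GC quintile, PCIF1 in clone A1 replicate A was still at -1.15, whereas its other 8 values lay between -0.11 and 0.27. CMTR2 lay between -0.18 and 0.23 on that measure, and CMTR1 between -0.30 and 0.10. For RNMT the vector libraries stood at 0.20, -0.04 and 0.24, and the 6 NCBP2 libraries between -0.25 and 0.04. Vector replicates A and C were again above all NCBP2 libraries and vector replicate B was among them.

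An offset for GC content, added to the fit after the pattern was seen, left standard errors at 0.466 (CMTR2) to 0.913 (RAMAC) of their former size in the NCBP2 arm. The log2 difference of RNMT was then -0.28 (SE 0.10; interval -0.49 to -0.07), or 0.713-fold to 0.956-fold. Its unadjusted p was 0.0137 in edgeR's quasi-likelihood test, 9.12% of all genes had one under 0.05 in that fit, and its adjusted p was 0.338, so it did not pass. It was -0.27 (interval -0.52 to -0.02; edgeR adjusted p 0.348) in clone A1 and -0.28 (-0.53 to -0.04; 0.432) in clone A4. In the NCBP2 arm, the intervals of the other 5 genes included 0. RNGTT was at 0.03 (interval -0.19 to 0.25), CMTR1 at -0.07 (-0.31 to 0.18) and CMTR2 at -0.03 (-0.26 to 0.20). RAMAC was at 0.05 (-0.40 to 0.49) and PCIF1 at -0.07 (-0.61 to 0.46), and for PCIF1 a change to 0.655-fold or 1.38-fold stayed within the interval. By clone, PCIF1 was at -0.31 (-0.89 to 0.27) in clone A1 against vector and 0.44 (-0.14 to 1.02) in clone A4 against clone A1. The fit with this offset was not repeated without clone A1 replicate A.

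Ratios between 2 genes of one library do not depend on how libraries are scaled. Per exon length, clone A1 had RNGTT to RNMT ratios of 0.517, 0.502 and 0.511, clone A4 had 0.565, 0.555 and 0.472, and the vector libraries had 0.437, 0.389 and 0.395. All 6 NCBP2 libraries were above all 3 vector libraries, and no test was made of this ratio. Its mean log2 value was -0.95 ± 0.10 (SD, n = 6) over the NCBP2 libraries, against -1.30 ± 0.09 (SD, n = 3) for vector. Set against RNMT in the same way, 5.83% of all tested genes had every NCBP2 library above every vector library, and 12.6% of the 5019 genes with a GC content no higher than that of RNMT. The separation thus was shared by many GC-poor genes when RNMT was the denominator.

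For RNMT to RAMAC, clone A1 had ratios of 1.86, 1.94 and 2.37, clone A4 had 2.44, 1.64 and 2.96, and the vector libraries had 2.92, 2.14 and 3.61. More RNMT than RAMAC transcript per length was thus counted in every library, and the groups overlapped. For CMTR1 to CMTR2, clone A1 had 0.349, 1.03 and 0.99, clone A4 had 0.737, 0.998 and 1.09, and the vector libraries had 0.786, 1.72 and 0.644. The extremes were clone A1 replicate A and vector replicate B, the libraries at the ends of the GC pattern, and the part of GC content in this ratio was not tested.

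**Figure D4:**
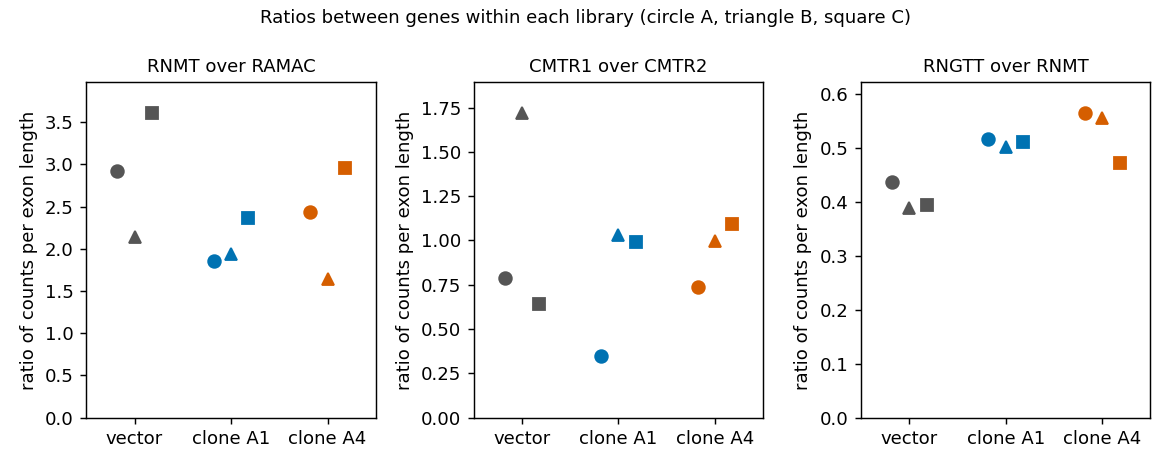
Ratio of counts per exon length within each library, on linear axes from 0, for RNMT over RAMAC, CMTR1 over CMTR2 and RNGTT over RNMT. The third panel shows 0.472 to 0.565 in the NCBP2 libraries and 0.389 to 0.437 in the vector libraries, without overlap; in the other panels the groups overlap.

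The 10 nearest tested genes on either side of each of the 6 genes, 20 in all per gene, were also read. None passed the threshold in edgeR's test in any of the 4 comparisons. The median log2 difference of the neighbours in the NCBP2 arm was 0.11 around RNGTT, whose own value was 0.11, and -0.07 around CMTR1, whose own value was -0.10. Around RNMT the neighbours stood at 0.01 in the NCBP2 arm, -0.02 in clone A1 and 0.05 in clone A4, beside -0.24, -0.19 and -0.30 for RNMT itself. Medians were 0.09 around RAMAC, -0.12 around CMTR2 and -0.09 around PCIF1. SNORA73, a small nucleolar RNA, lies within RNGTT on the same strand but overlaps none of its exons. On the opposite strand, an exon of FAM210A overlaps RNMT, and exons of lncRNAs overlap CMTR2 and PCIF1. Counts on the opposite strand were a small share for RNMT (0.167% to 0.481%), RNGTT and CMTR2. They reached 5.35% for RAMAC, 5.38% for CMTR1 and 15.1% for PCIF1, and for no gene was the share in all NCBP2 libraries above that in all vector libraries.

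Genes that act beside the cap enzymes were read in 6 lists with 43 genes, all of which were tested. With edgeR's quasi-likelihood test, 0 of 43 passed the adjusted threshold in each of the 4 comparisons. At an unadjusted p under 0.05 there were 2 in the NCBP2 arm, 2 in clone A1 against vector, 0 in clone A4 against vector and 2 in clone A4 against clone A1, against the shares of all genes given above. Median log2 differences in the NCBP2 arm ran from -0.14 to 0.19, beside 0.02 over all genes.

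Among the 6 other enzymes of RNA 5′ ends (median -0.14), MEPCE, which methylates the end of a small nuclear RNA, was at -0.21 and BCDIN3D at -0.20. Among the 9 genes that couple capping to transcription (median 0.09), such as RNA polymerase II and its kinases, the cyclins CCNT2 and CCNH were at 0.30 and 0.27. The 5 partners and regulators of the enzymes (median 0.03) included CDK1, a kinase of RNMT, at 0.16 and DHX15, a helicase that binds CMTR1, at 0.11. None of these 6 differences had an unadjusted p under 0.05 in edgeR's test, and several rested on 1 library. Without vector replicate B, CCNT2 was at 0.04, CCNH at 0.01, DHX15 at 0.01, MEPCE at -0.02, BCDIN3D at -0.10 and CDK1 at -0.16. Without clone A1 replicate A, MEPCE was at -0.06 and BCDIN3D at -0.33.

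Cap methylation uses S-adenosylmethionine, and 9 genes of its supply had a median of -0.03. AHCYL2, related to the hydrolase that clears its by-product, had 14.9 to 29.2 CPM (median 20.5) in the NCBP2 arm and 28.3 to 30.6 CPM in the vector libraries, a log2 difference of -0.48 (SE 0.20; unadjusted p 0.032; edgeR adjusted p 0.808). Only the highest NCBP2 library reached the vector range. By clone, AHCYL2 was at -0.71 in clone A1 (unadjusted p 0.00503 and adjusted p 0.342 in edgeR's test) and at -0.28 in clone A4 (unadjusted p 0.202). MTR, methionine synthase, was at 0.29 (edgeR adjusted p 0.9). The 9 genes of internal adenosine methylation had a median of -0.10. CBLL1, a subunit of that methyltransferase complex, had 78.5 to 102 CPM (median 95.4) in the NCBP2 arm and 102 to 125 CPM in the vector libraries. Its NCBP2 libraries were all below its vector libraries, although both ranges reached 102 CPM as rounded. Groups without overlap, in either direction, were found for 3.74% of all genes. How many of the 43 related genes had them is not given here. The log2 difference of CBLL1 was -0.30 (SE 0.14, unadjusted p 0.0446 and adjusted p 0.852 in edgeR's test). Against vector, CBLL1 was at -0.31 in clone A1 and -0.29 in clone A4. ZC3H13 of the same complex was at 0.30, and at 0.09 without vector replicate B. The 5 genes listed under the sensing of incomplete caps had a median of 0.19. RIGI was at 0.45 (SE 0.26, edgeR adjusted p 0.981). IFIT1, which binds caps that lack ribose methylation, was at 0.35 (SE 0.24, edgeR adjusted p 0.999). RIGI was at 0.27 without clone A1 replicate A and 0.30 without vector replicate B, and IFIT1 at 0.21 without the latter. The other sensors were named after their values were seen. IFIT2 was at -0.37 in the NCBP2 arm, -1.83 in clone A1 and 0.33 in clone A4. Its unadjusted p in edgeR's test was 0.789, 0.284 and 0.827, and its average log2 CPM was below 1. IFIT3 was at 0.11, -0.98 and 0.72 (unadjusted p 0.877, 0.189 and 0.315 in edgeR's test). IFIT5 was at 0.19, 0.31 and 0.05 (0.422, 0.25 and 0.842).

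**Figure D5:**
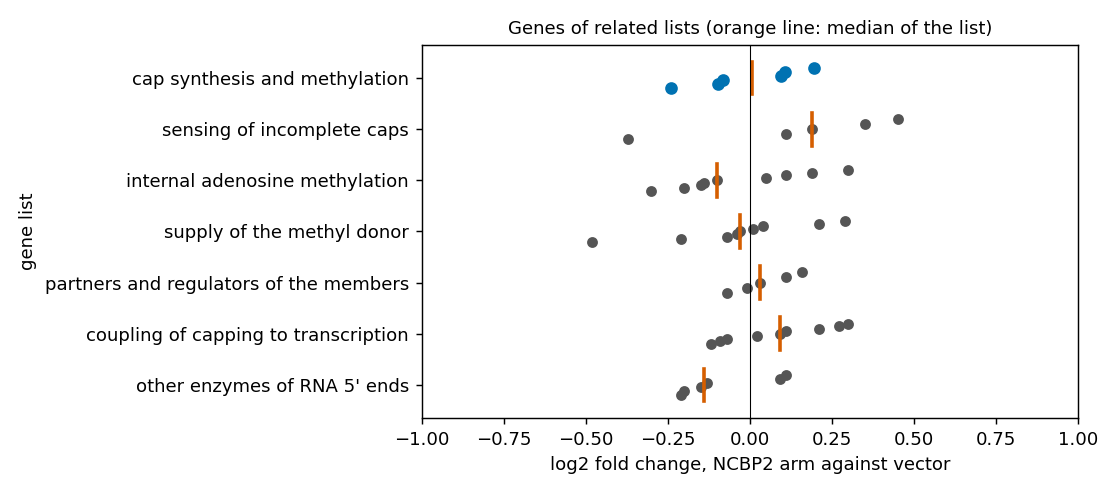
Log2 fold change of the NCBP2 arm against vector for the 43 genes of the 6 related lists (grey points) and the 6 cap enzymes (blue points), with the median of each list in orange. The cap enzymes lie between -0.24 and 0.19, and the list medians between -0.14 and 0.19.

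For each cap enzyme the tested genes with the most similar course over the 9 libraries were found by Pearson's r of log2 CPM among 13504 genes. RNGTT was closest to TMEM267 (0.995) and FYTTD1 (0.994), an adaptor of mRNA export. CMTR1 was closest to EFTUD2 (0.995), a GTPase of the spliceosome, and HNRNPUL1 (0.989). CMTR2 was closest to CERT1 (0.983), the ceramide transfer protein, and ZBTB10 (0.981), and PCIF1 to TRAPPC2L (0.992) and RRP1 (0.990), which serves ribosomal RNA processing. An r above 0.9 was reached by 6.94% of the genes for PCIF1, 4.01% for CMTR1, 3.61% for CMTR2 and 2.71% for RNGTT. Close courses were less frequent for RNMT (0.2%), nearest to ING3 (0.963) and SAMD12 (0.963), and for RAMAC (0.215%), nearest to MFSD9 (0.941). All points of these correlations share the libraries and their GC pattern.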

How the data were processed

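The authors deposited whole-number counts per gene with no normalization. Per the submitters' processing notes, reads were aligned with STAR 2.7.1a to GRCh38. The counting step and annotation are not given in the sources used here. Column 3, which held most stranded counts, was read as the strand of the gene, and the 4 lines that name no gene (44.52% to 63.61% of reads) were left out. Total reads per library were 80341579 to 111784333. Protocols in the labels describe ribosomal RNA removal, although the molecule field names polyadenylated RNA. Gene symbols came from GENCODE release 44 (60295 of 60609 identifiers matched). The 6 genes and the lists were chosen with earlier results of these data known.

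Counts were tested with edgeR 4.0.16 (R 4.3.3; filterByExpr, TMM, robust quasi-likelihood), with Benjamini-Hochberg adjustment over all genes and a threshold of 0.05. A 2-group fit compared the NCBP2 arm with vector, and a 3-group fit compared the clones. CPM used TMM-scaled totals and log2 CPM a prior count of 2. Intervals are 95% from the fits. No 2 libraries of a group agreed within sampling noise (chi-square per degree of freedom at least 30.3). The script was tested on simulated data with 4-fold changes in 200 genes and no GC pattern. That test does not cover differences as small as those of the 6 genes. The genes named are the 6 enzymes, NCBP2, the 2 genes with the largest change in the NCBP2 arm of each list, and the 2 most correlated genes per enzyme (1 of those for RAMAC is not reported here), all with an average log2 CPM of at least 1. Alternatives were DESeq2 1.42.0, limma-voom 3.58.1 with library weights, RLE scaling, no filter, counts of both strands, a replicate block, summed counts per clone, 6-library fits, single libraries left out and, chosen after seeing the data, an offset for GC content in 20 bins.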

Additional observations from a re-analysis of the deposited data

Results flagged for a closer look

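In 4 of 9 groups of values tested, clone A1 replicate A lay farther from the other 5 NCBP2 libraries than Dixon's 95% critical value allows; chance flags about 1 in 20 such groups, and the 4 values come from 1 library. PCIF1 was at 2.20 on the log2 CPM scale there, and the next lowest library at 4.23. CMTR2 was at 7.12 with the next highest at 6.49, and RNMT at 7.23 with the next highest at 6.97. The log2 ratio of CMTR1 to CMTR2 per length was -1.52 in that library and -0.44 in the next. This ratio contains the flagged CMTR2 value, so the 4 flags are not independent.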

How the results depend on the processing

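No cap enzyme passed the threshold under any of the 18 alternative settings tried, in any comparison. Of 408 alternative values of the 24 log2 differences (6 genes in 4 comparisons), 368 kept their sign and 40 turned. For 8 differences none turned, among them all 4 of RNMT. In the NCBP2 arm, voom with library weights turned RNGTT to -0.05, CMTR1 to 0.04, CMTR2 to -0.15, PCIF1 to 0.05 and CDK1 to -0.02. In clone A1 against vector it turned RNGTT to -0.07, CMTR1 to 0.08 and CMTR2 to -0.14, and in clone A4 against vector RAMAC to -0.02. In clone A4 against clone A1 it gave 0.08 for RNGTT, -0.15 for CMTR1 and 0.00 for CMTR2. Counts without regard to strand turned RAMAC to -0.08 in the NCBP2 arm and -0.23 in clone A4, and BCDIN3D to 0.20. The GC offset turned CMTR2 to -0.03 in the NCBP2 arm and RNGTT to -0.02 in clone A1, and gave 0.09 for RNGTT and -0.01 for CMTR1 in clone A4 against clone A1. The cause of these turns was not tested.

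Leaving out single libraries gave ranges that cross 0. In the NCBP2 arm they were -0.07 to 0.20 for RNGTT, -0.22 to 0.04 for CMTR1, -0.15 to 0.25 for CMTR2, -0.31 to 0.14 for PCIF1 and -0.16 to 0.42 for CDK1. In clone A1 against vector they were -0.03 to 0.23 for RNGTT, -0.30 to 0.07 for CMTR1 and -0.06 to 0.39 for CMTR2. In clone A4 against vector they were -0.10 to 0.17 for RNGTT, -0.19 to 0.20 for RAMAC, -0.17 to 0.09 for CMTR1, -0.30 to 0.10 for CMTR2 and -0.10 to 0.43 for PCIF1. In clone A4 against clone A1 they were -0.13 to 0.06 for RNGTT, -0.10 to 0.24 for CMTR1 and -0.42 to 0.01 for CMTR2. RNMT ranged from -0.39 to -0.14 in the NCBP2 arm.

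The number of genes past the threshold among all genes depended on the tool. In the order NCBP2 arm, clone A1, clone A4 (each against vector) and last the difference between the clones, edgeR gave 4, 14, 25 and 35, DESeq2 108, 274, 185 and 246, and voom 216, 297, 233 and 149. Without the filter on low counts there were 20, 312, 163 and 231, and with the GC offset 54, 177, 137 and 189. Counts summed per clone gave 0 in the NCBP2 arm, and the 6 libraries of clone A1 and vector alone gave 7. RLE scaling gave 8 higher and 3 lower genes in clone A1, beside 8 and 6 with TMM. Leaving out single libraries gave 1 to 8, 3 to 14, 7 to 41 and 10 to 56 genes. With the replicate block the counts were 13, 38, 53 and 51, with 0 cap enzymes among them. The replicate letters were not taken to pair the samples, because not every same-letter pair had a correlation of deviations over 0.1. It was over 0.1 in 5 of 9 pairs (range -0.10 to 0.18), among them all 3 pairs of letter A, so a shared origin of some same-letter libraries was not settled, and some libraries correlated best with another letter. The depth of PCIF1 in clone A1 replicate A (129 counts) and the 2 clones of the NCBP2 arm limit what these data can show.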
